A study of Mus musculus with 17 samples.

Results

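The comparison described here set 3 AB12 tumors taken on day 10 (d10) from mice treated with anti CTLA-4 against 3 AB12 tumors taken on day 6 (d6) from untreated mice. Its libraries were chosen by their labels alone and make up 6 of the 17 libraries of the series. The counts covered 55450 genes, of which 21951 were protein coding, and 13962 of these had enough reads to be tested and are the genes described. The AB12 line was grown from a mouse mesothelioma, a tumor of the cells that line body cavities, and 100000 of its cells were injected into the peritoneum of BALB/c mice, which the study states were 8-week-old females. Treated mice received injections of 200 µg of anti CTLA-4 (clone 9D9) into the peritoneum. The general protocol of the study was 4 injections unless stated otherwise. The study describes an early treatment, injected on d6 and d10, for tumors taken on d14, and how many injections the mice of treated d10 had received is not given in the sources used here. Untreated mice carried the same tumor and no control antibody is named for them. Each library came from 1 tumor of 1 mouse, and 5 untreated d10 tumors are set beside the pair, because day and antibody both differ between treated d10 and untreated d6 and cannot be told apart from these 6 libraries.

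CTLA-4 is a receptor of activated and regulatory T cells that competes with CD28 for the ligands CD80 and CD86 and thereby restrains T cell activation. CD8 T cells kill their targets with perforin and granzymes and, under lasting stimulation by antigen, carry inhibitory receptors such as PD-1, TIM-3 and LAG-3. Regulatory T cells, which depend on the transcription factor FOXP3, carry much CTLA-4 on their surface, and type I interferons (IFN) switch on a set of antiviral genes in cells that bear their receptor.

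The transcript of the antibody's target could not be read: Ctla4 (chr1:60887000-60915832, GRCm38) held 0 to 2 reads in each of the 17 libraries, so neither its level nor the labels could be checked with it. The tissue label was checked with other markers. The epithelial keratin gene Krt18 stood at 985, 995 and 923 normalized CPM (CPM, read counts scaled to the size of each library) at d6 and at 745, 944 and 853 at treated d10, and the mesothelioma antigen gene Msln at 175, 216 and 205 and 475, 636 and 497. Transcripts of the pancreas were few, and the lists of fat, liver and gut stood higher. Of 16 pancreas acinar genes 2 could be tested, and the list summed to 1.73 to 2.0 CPM at d6 and to 1.66 to 1.83 at treated d10. Of 12 adipocyte genes 8 could be tested, with sums of 43.0 to 102.3 CPM at d6, 41.1 to 80.9 at untreated d10 and 28.2 to 30.8 at treated d10. Of 14 liver genes 3 could be tested and 7 held at most 3 reads in each of the 11 d6 and d10 libraries. That list summed to 88.1 to 142.7 CPM at d6 and 49.0 to 54.7 at treated d10. Of 11 intestine genes 3 could be tested and 5 held at most 3 reads in each. The intestine list summed to 38.8 to 51.9 and 30.1 to 35.9, most of it from Cdx2 (mean 35.6 CPM over the 6 libraries). The liver and intestine sums rest on few genes and do not by themselves show tissue of liver or gut. These are whole tumors, in which fewer cells of a type and less RNA per cell cannot be told apart.

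The libraries fell into sets that did not follow the groups. Per the study's methods they were sequenced as pairs of 75 bases on a NextSeq500 or of 100 bases on a NovaSeq6000, and the study took genes that set a sequencing project apart out of its own analysis. No gene was removed for this reason here, and which library was sequenced where is not given in the sources used here. On pseudogenes and small RNA genes the d6 libraries clustered with untreated d10 tumors 1 to 3, and the treated d10 libraries with untreated d10 tumors 4 and 5. The small RNA gene Mir6236 illustrates the split, with 3387 to 4697 reads at d6, 3964 to 12332 in untreated d10 tumors 1 to 3, 141 and 176 in tumors 4 and 5, and 205 to 1244 at treated d10. Cut into 3 sets, the same clustering put the d14 libraries in a set of their own, and what the sets stem from was not tested. Library set and group cannot be told apart within the 6 libraries. A second fit therefore took in the untreated d10 tumors, which lie on both sides, and held library set as a term. Its value is called the set-adjusted value and is given for each named gene whose call or direction it changed or whose log2 fold change it moved by more than 1.5 times, and for most lists whose counts or median it moved as much. On the side of treated d10 this value rests on untreated d10 tumors 4 and 5, the only untreated d10 tumors of that set. Calls that it lost without tumor 4 are named, and in that case tumor 5 alone is left on that side. Library totals ran from 46371577 to 52814004 reads at d6 and from 71233601 to 84480503 at treated d10.

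Between d6 and treated d10 most genes of the T cell receptor complex and of CD8 T cells and killing rose. Most genes of the type I IFN response, of B cells and of dendritic cells fell. So did most of the list of eosinophils, mast cells and the type 2 response, with fewer calls set-adjusted. Genes of CD4 and regulatory T cells went both ways. A gene was called changed at an adjusted p below 0.05 in edgeR's quasi-likelihood test together with a more than 2-fold difference, that is a log2 fold change, treated d10 minus untreated d6, above 1 or below -1. By this rule 1730 of 13962 protein coding genes were called (12.4%), 925 higher (6.63%) and 805 lower (5.77%). The median log2 fold change over all tested protein coding genes was 0.04. The 3 treated and the 3 untreated libraries did not overlap in 8614 genes (61.7%), so an absence of overlap is common here and says little of a single gene. With library set as a term 1333 of 14527 genes were called (9.18%), 790 higher (5.44%) and 543 lower (3.74%), and 857 of the 1730 genes, 475 higher and 382 lower, were called in the same direction. A further 111 of the 1730 had the opposite sign with that term.

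**Figure D1:**
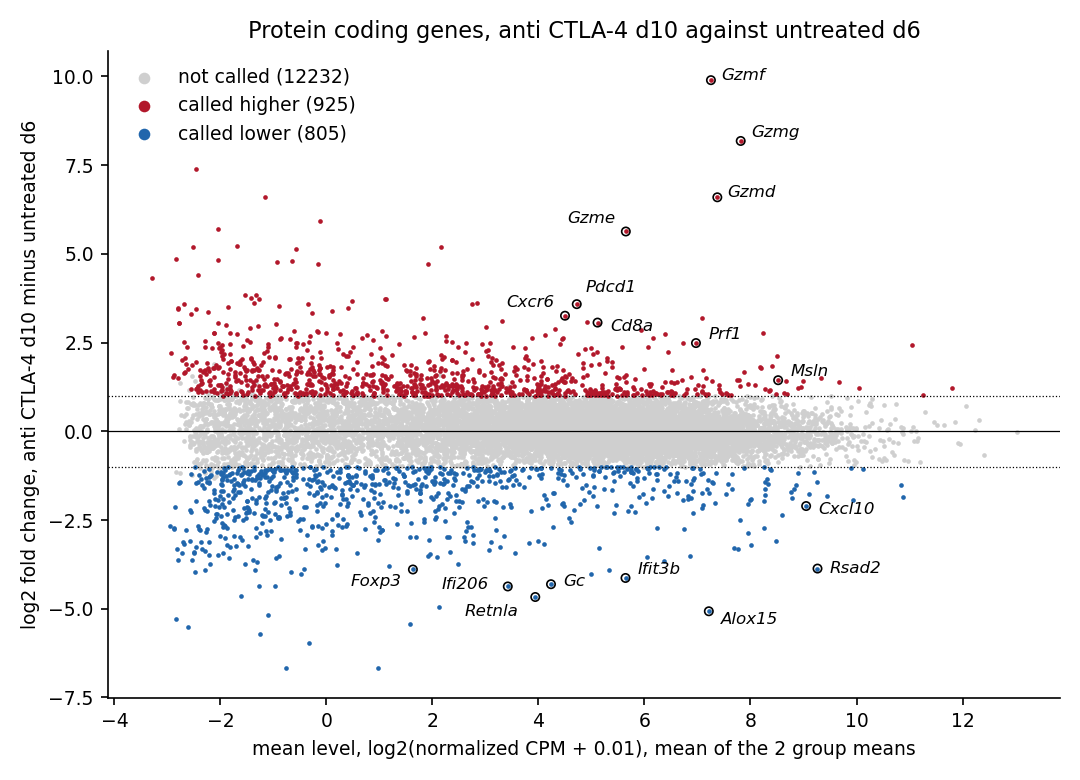
Log2 fold change of each of 13962 tested protein coding genes (vertical axis) against the mean of the d6 and treated d10 mean levels (horizontal axis, log2 of normalized CPM plus 0.01), with 925 genes called higher in red, 805 called lower in blue and the rest in grey. Dotted lines mark log2 fold changes of 1 and -1. Gzmf, Gzmg, Gzmd and Gzme stand highest among the genes with much RNA, and Alox15, Retnla, Ifi206, Gc, Ifit3b, Foxp3 and Rsad2 lie far below the lower line.

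**Figure D2:**
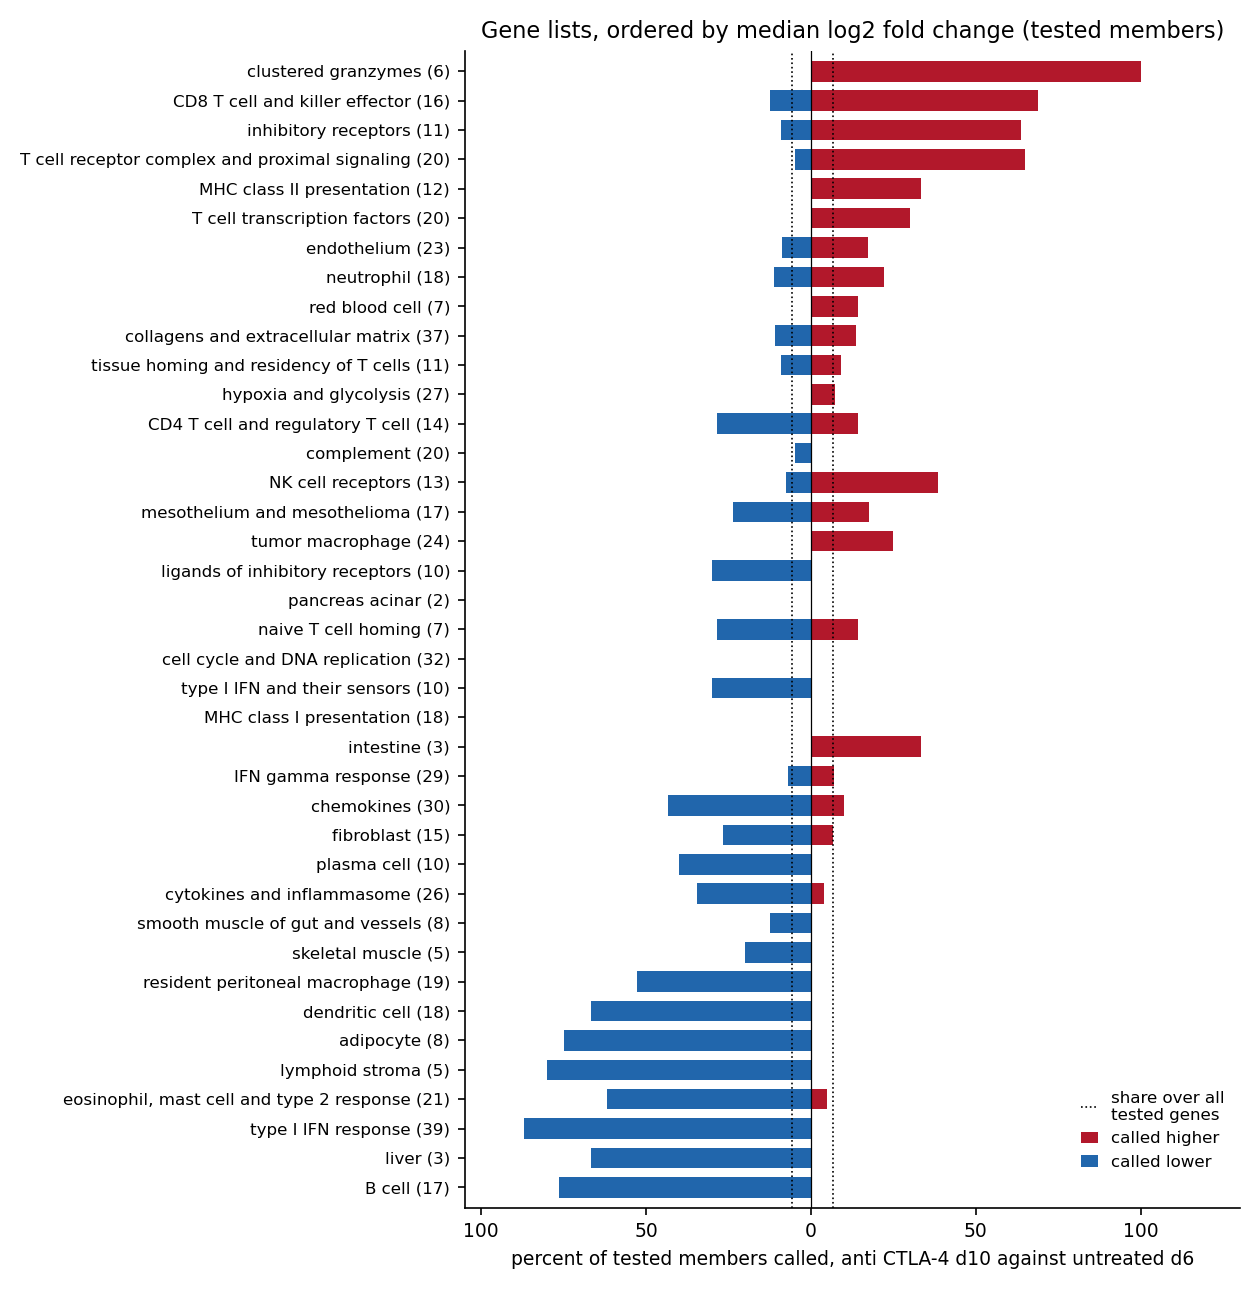
Percent of the tested members of each gene list that were called higher (red, to the right) or lower (blue, to the left), with the number of tested members in parentheses and the lists ordered by their median log2 fold change. Dotted lines mark the shares over all tested protein coding genes, 6.63% higher and 5.77% lower. The granzyme, CD8, inhibitory receptor and T cell receptor lists lie mostly to the right and the B cell, type I IFN, eosinophil, lymphoid stroma, adipocyte and dendritic cell lists mostly to the left.

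The genes of the T cell receptor complex were higher at treated d10. Of 20 tested members of the list 13 rose and 1 fell, and the median log2 fold change was 1.16, and in the untreated d10 tumors, where 1039 of 14057 genes were called against d6 (7.39%, with 5.13% higher and 2.26% lower), 14 rose and none fell. The list summed to 316.6 to 321.2 normalized CPM at d6, 518 to 597.7 at untreated d10 and 467.4 to 530.2 at treated d10. Cd3e, a signaling chain of the receptor complex, measured 13.6, 12.8 and 14.5 normalized CPM in the d6 tumors and 55.0, 45.5 and 48.3 in the treated d10 tumors. The groups lay far apart, and Cd3e rose with a log2 fold change of 1.87 ± 0.10 (SE) and an adjusted p of 1.92e-06. Cd3d measured 5.40, 5.00 and 5.32 CPM at d6 and 23.7, 20.3 and 20.9 at treated d10 (log2 fold change 2.05 ± 0.11, adjusted p = 1.67e-06), and Cd3g rose (log2 fold change 2.19 ± 0.13). Themis, which tunes T cell receptor signals during thymic selection, rose (log2 fold change 2.38 ± 0.15), from 3.16 to 4.15 to 16.2 to 22.5 CPM. Zap70, the kinase that docks on the phosphorylated receptor, rose (log2 fold change 1.76 ± 0.10). Cd6, a costimulatory receptor, rose (log2 fold change 1.17 ± 0.12), a call that was lost at a set-adjusted 0.65. Trat1, an adaptor of the receptor, was the member that fell, from 1.22, 0.665 and 0.506 CPM to 0.191, 0.175 and 0.232.

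CD8 T cell genes rose as well. Cd8a measured 7.29, 7.68 and 7.33 normalized CPM at d6 and 69.7, 57.8 and 58.0 at treated d10, and Cd8b1, the other chain of the co-receptor, 5.07, 4.55 and 4.78 and 38.3, 33.4 and 33.7. No d6 tumor came near a treated tumor, with log2 fold changes of 3.06 ± 0.10 for Cd8a and 2.88 ± 0.10 for Cd8b1, with adjusted p values of 2.97e-07 and 2.97e-07. The untreated d10 tumors held 56.8, 68.4, 60.8, 78.3 and 69.0 CPM of Cd8a, a range that contains all treated tumors, and their own log2 fold change over d6 was 3.19. Of the 16 tested members of the CD8 and killer list 11 rose and 2 fell, with a median of 1.68 beside 1.72 set-adjusted.

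Perforin and granzyme B, which together carry out granule killing, were higher at treated d10. Prf1 measured 37.2, 43.6 and 33.7 normalized CPM at d6 and 233, 176 and 229 at treated d10, and Gzmb 126, 135 and 131 and 359, 274 and 306. Both genes were above the d6 range in every treated tumor, with log2 fold changes of 2.49 ± 0.13 (adjusted p = 1.58e-06) for Prf1 and 1.27 ± 0.10 (adjusted p = 1.32e-05) for Gzmb. Untreated d10 tumors held 136, 205, 162, 133 and 179 CPM of Prf1 and 283, 371, 386, 235 and 270.4 of Gzmb, which took in 1 of the 3 treated tumors for Prf1 and all 3 for Gzmb. Gzmk, a granzyme of early effector and memory T cells, rose (log2 fold change 2.46 ± 0.15). The chemokine genes Ccl5 and Ccl4, which CD8 T cells and NK cells release, rose, with log2 fold changes of 2.63 ± 0.16 and 1.38 ± 0.16.

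The members of the list that fell were cytokine genes. Ifng, the gene of IFN gamma, measured 33.4, 22.5 and 29.7 CPM at d6 and 15.4, 12.7 and 12.5 at treated d10 (log2 fold change -1.07 ± 0.15, adjusted p = 0.000284). Its untreated d10 levels followed the library sets, 20.5, 24.8, 18.2, 10.6 and 9.33 CPM in tumors 1 to 5, and with library set as a term the log2 fold change was 0.0060 (adjusted p = 0.99). Without the first d6 tumor it was -0.94 and no longer called. Ifng shares 25.9% of its exon bases with the same-strand gene Gm49751, and its count may leave out reads of those stretches. Tnfsf10, the gene of the death ligand TRAIL, fell (log2 fold change -1.26 ± 0.21) and lost its call without the third d6 tumor (-0.96).

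The largest rises among genes with a mean of at least 10 CPM were those of a granzyme cluster. Gzmc, Gzmd, Gzme, Gzmf, Gzmg and Gzmn lie side by side on chr14 between positions 56117626 and 56234656 (GRCm38) and are known from strongly activated cytotoxic T cells and NK cells. All 6 rose, with a median log2 fold change of 6.11, and the cluster as a whole summed to 22.5 to 46.2 normalized CPM at d6 and to 1164 to 1695 at treated d10. Gzmf measured 0.445, 0.322 and 0.202 CPM at d6, from 10 to 20 reads a library, and 356, 248 and 310.0 at treated d10, from 17012 to 29839 reads. Every treated tumor was far above d6, with a log2 fold change of 9.89 ± 0.23 (adjusted p = 1.67e-08). Gzmg went from 1.58, 2.56 and 0.526 to 538, 359.9 and 449 CPM (log2 fold change 8.18 ± 0.38) and Gzmd from 3.40, 5.2 and 1.66 to 380.1, 281 and 324 (log2 fold change 6.59 ± 0.32). Gzme measured 2.16, 2.78 and 1.05 CPM at d6 and 111, 83.4 and 100.2 at treated d10 (log2 fold change 5.63 ± 0.26), and Gzmc 26.5, 35.3 and 19.1 and 309.5, 191 and 237 (log2 fold change 3.20 ± 0.23). Gzmn held 0 or 1 read in each d6 tumor and 13 to 34 in the treated ones, which makes it at least 5.17-fold higher against a floor of 3 reads per library.

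The cluster was high without the antibody too, and one tumor stood low. Untreated d10 tumors held 154, 333, 189, 35.9 and 192 CPM of Gzmf and 182, 379, 254, 28.2 and 248 of Gzmg, with tumor 4 the lowest in both. The direct comparison of treated with untreated d10 tumors gave log2 fold changes of 0.75 for Gzmf (adjusted p = 0.52) and 1.04 for Gzmg (adjusted p = 0.442). The set-adjusted median of the cluster over d6 was 7.11, and 6.36 without untreated d10 tumor 4. These genes are near-identical copies in places, and Gzmf also shares 16.4% of its exon bases with a gene on the opposite strand, so reads may have been split or lost among them by the counting.

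**Figure D3:**
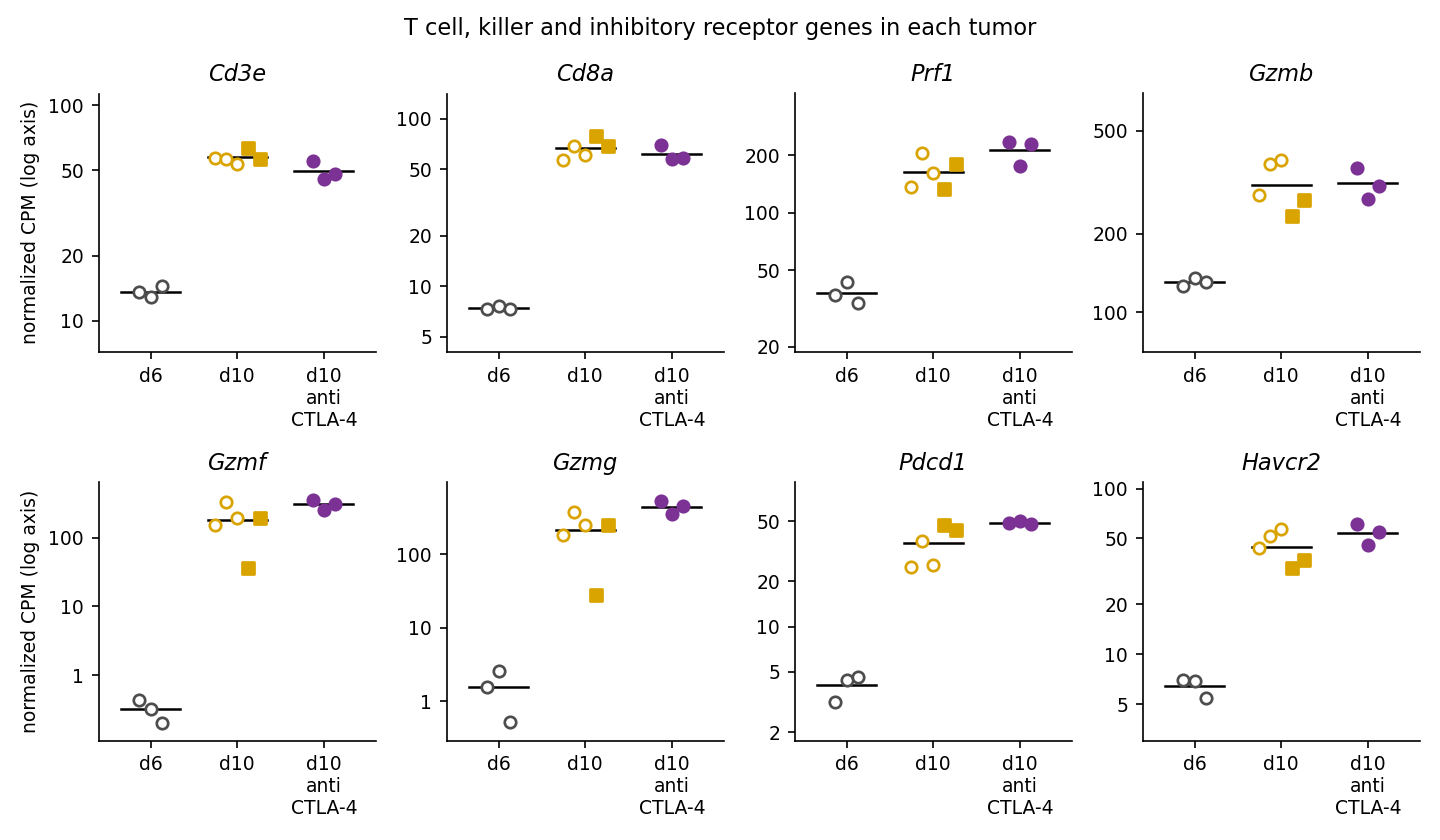
Normalized CPM (log axis) of 8 genes in each tumor: untreated d6 (grey), untreated d10 (yellow, with tumors 4 and 5 as filled squares) and anti CTLA-4 d10 (purple). Black lines are group means. In all 8 genes every treated tumor lies above every d6 tumor, and untreated d10 tumor 4 is far below the other d10 tumors in Gzmf and Gzmg.

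Genes of inhibitory receptors rose with the T cell genes. Of 11 tested members 7 rose and 1 fell, and the median log2 fold change was 1.28 (0.86 set-adjusted, with 5 higher and 1 lower). At untreated d10 7 members were higher than at d6 as well and none lower, with a median of 1.21. Pdcd1, the gene of PD-1, measured 3.16, 4.43 and 4.64 normalized CPM at d6 and 48.2, 50.4 and 47.5 at treated d10. The treated tumors lay close together and far above d6 (log2 fold change 3.58 ± 0.14, adjusted p = 2.97e-07), and untreated d10 tumors held 24.7, 36.8, 25.6, 47.1 and 43.3 CPM. Havcr2, the gene of TIM-3, measured 6.98, 6.89 and 5.40 at d6 and 60.9, 45.9 and 54.3 at treated d10 (log2 fold change 3.07 ± 0.14, adjusted p = 7.41e-07). Klrc1, the gene of NKG2A on CD8 T cells and NK cells, rose (log2 fold change 3.61 ± 0.18). Lag3, whose product binds MHC class II, measured 12.7, 15.0 and 15.6 CPM at d6 and 35.2, 28.3 and 31.8 at treated d10 (log2 fold change 1.14 ± 0.11, adjusted p = 3.93e-05). With library set as a term Lag3 was no longer called (0.50, adjusted p = 0.141), nor was Tigit (log2 fold change 1.28 ± 0.12 against 0.56).

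Btla, an inhibitory receptor of B cells, dendritic cells and T cells, was the member that fell. It measured 8.09, 7.13 and 7.55 CPM at d6 and 3.06, 3.48 and 2.61 at treated d10 (log2 fold change -1.31 ± 0.15, adjusted p = 9.33e-05), whereas untreated d10 tumors held 6.20, 6.93, 5.65, 13.1 and 5.45. Every untreated tumor of either day was above every treated tumor. Of 10 tested genes of ligands 3 fell and none rose (1 higher and 1 lower set-adjusted), among them Lgals9, the gene of galectin-9, from 406 to 528 to 152 to 189 CPM (log2 fold change -1.42 ± 0.13). Ceacam1 and Vtcn1 fell, with log2 fold changes of -1.10 ± 0.16 and -1.04 ± 0.23, and lost their calls with library set as a term (-0.65 and -0.48). Ceacam1 was not called either without the second d6 or the first treated tumor (-0.99 in each case), nor was Vtcn1 without the second d6 (-0.90) or the third treated tumor (-0.85). Cd274, the gene of PD-L1, had a log2 fold change of 0.42 ± 0.11 and was not called, but passed the rule set-adjusted (1.0, adjusted p = 0.00174).

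Transcription factors and homing receptors of T cells changed in part. Tox, a factor of chronically stimulated CD8 T cells, measured 1.69, 1.71 and 1.94 normalized CPM at d6 and 6.34, 5.64 and 7.21 at treated d10 (log2 fold change 1.85 ± 0.16, and 1.11 set-adjusted). Tbx21, the gene of T-bet, which drives type 1 T cell responses, rose (log2 fold change 1.27 ± 0.13), as did the receptor-induced factor gene Nr4a2 (log2 fold change 1.16 ± 0.19), whose call was lost without the first treated tumor (0.96). In all 6 of 20 tested factors rose and none fell (median 0.56). Cxcr6, a receptor that holds T cells in tissue, rose from 3.64 to 4.91 to 37.3 to 46.3 CPM (log2 fold change 3.26 ± 0.13). Of 7 tested genes of naive T cell homing 1 rose and 2 fell (1 higher and 3 lower set-adjusted), and of 11 genes of homing to and residency in tissue 1 rose and 1 fell (2 higher and 1 lower set-adjusted). Il7r, the receptor chain for the survival cytokine IL-7, rose (log2 fold change 2.45 ± 0.17). Cd69, an early activation and residency marker, fell (log2 fold change -1.01 ± 0.29, adjusted p = 0.0143), and its call was lost set-adjusted (-0.53) and without the third d6 tumor (-0.55), the second treated tumor (-0.99) or the third (-0.93).

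Of 13 tested genes of NK cell receptors 5 rose and 1 fell, with a median of 0.06. Set-adjusted 5 were higher and none lower, with a median of 0.73. Klrd1 and Klrc2, whose products pair on NK cells and on CD8 T cells, rose, with log2 fold changes of 2.49 ± 0.16 and 2.34 ± 0.28. Ncr1, the gene of NKp46, which T cells mostly lack, fell from 7.16, 6.15 and 7.02 CPM to 2.86, 2.06 and 2.24 (log2 fold change -1.49 ± 0.17, adjusted p = 7.78e-05), and with library set as a term it was at -0.82 and not called.

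Foxp3 fell while the genes of the T cell receptor rose. Foxp3 (chrX:7573644-7595245, GRCm38), the factor that defines regulatory T cells, measured 6.20, 5.28 and 5.87 normalized CPM at d6 and 0.227, 0.438 and 0.507 at treated d10, from 262 to 290 reads a library against 19 to 35. The log2 fold change was -3.89 ± 0.26 with an adjusted p of 5.58e-06, and it was -3.92 set-adjusted. Untreated d10 tumors held 2.79, 1.55, 2.72, 3.28 and 1.46 CPM, between the other groups with no overlap with either, and were themselves below d6 by a log2 fold change of -1.27 (adjusted p = 0.0123). Foxp3 shares 18.6% of its exon bases with the same-strand gene Flicr and 12.9% with the opposite-strand gene Ccdc22, and its count may leave out reads of those stretches.

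Whether treated and untreated d10 tumors differ in Foxp3 depended on the fit. Over all 8 tumors of d10 the log2 fold change was -2.60 (adjusted p = 0.0745), which is not called. With library set as a term it was -2.62 and called (adjusted p = 0.00508), and without untreated d10 tumor 4 that fit gave -1.94 and no call (adjusted p = 0.0823). In the direct comparison as a whole 0 of 14212 genes were called by edgeR's quasi-likelihood test (1842 at an unadjusted p below 0.05, and 145 called by DESeq2), and 113 of 14527 with library set as a term (0.778%), of which 6 were called without tumor 4.

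The other genes of CD4 and regulatory T cells went different ways. Cd4, the co-receptor of helper and regulatory T cells that some macrophages and dendritic cells also carry, measured 10.8, 9.11 and 10.1 CPM at d6 and 5.17, 4.57 and 4.66 at treated d10 (log2 fold change -1.05 ± 0.13, adjusted p = 0.000112), a call that was lost without the first d6 tumor (-0.99) and set-adjusted without untreated d10 tumor 4 (-0.71). Izumo1r, the gene of folate receptor 4, which is abundant on regulatory and anergic CD4 T cells, fell from 1.73, 2.01 and 2.06 CPM to 0.43, 0.438 and 0.666 (log2 fold change -1.92 ± 0.24, adjusted p = 0.000167), and untreated d10 tumors held 1.54, 1.45, 1.24, 2.70 and 1.48. Il10, the gene of a suppressive cytokine, fell (log2 fold change -1.5 ± 0.32) and was not called set-adjusted (-1.10). Il2ra, the high-affinity chain of the IL-2 receptor on regulatory and on freshly activated T cells, measured 23.2, 23 and 20.5 CPM at d6 and 47.6, 29.4 and 37.9 at treated d10. All treated tumors were above d6, but the log2 fold change of 0.79 ± 0.15 stayed under the 2-fold rule and reached it only set-adjusted (1.15, adjusted p = 0.00508). Icos, a costimulatory receptor of activated T cells, rose (log2 fold change 1.28 ± 0.18). Of the 14 tested members of the list 2 rose and 4 fell, with a median of 0.09, and 3 were higher and 2 lower set-adjusted without untreated d10 tumor 4.

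**Figure D4:**
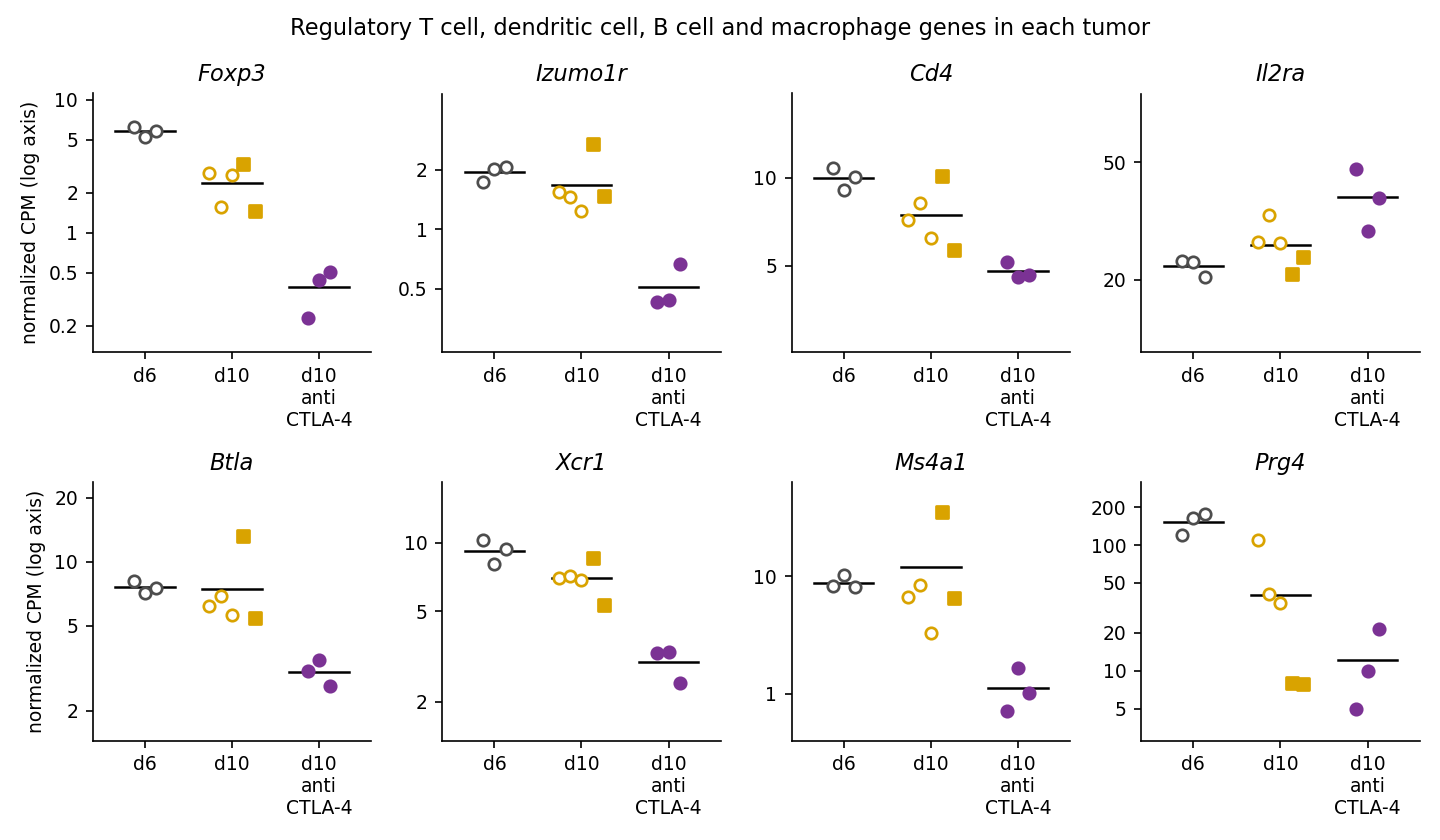
Normalized CPM (log axis) of 8 genes in each tumor, with symbols as in the plot of T cell, killer and inhibitory receptor genes and black lines at the group means. Foxp3, Izumo1r, Cd4, Btla, Xcr1 and Ms4a1 are lower in every treated tumor than in every untreated tumor of either day, Il2ra lies higher at treated d10 than at d6, and Prg4 splits the untreated d10 tumors by library set.

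The response to type I IFN was the gene group with the widest fall. All 39 tested members of its list were below d6 at treated d10, 34 of them called lower and none higher, with a median log2 fold change of -1.94, and the d6 and treated d10 tumors did not overlap in any member. The set-adjusted fit also called 34 lower and none higher, with the same median. At untreated d10 34 members were lower than at d6 as well (median -1.80), and the list summed to 11346 to 17482.5 normalized CPM at d6, 3602 to 5059 at untreated d10 and 3588 to 4310.1 at treated d10.

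Part of the members carry, just before their start, letters of the element that the factor complex of the type I IFN receptor binds. The 250 bases before the start of each gene in RefSeq (GRCm38.p6) were searched for GAAA followed by any 2 bases (NN) and a further GAAA, and for the reverse complement of this pattern, TTTC, NN and TTTC, where overlapping matches count once each. Of 29 list members with a RefSeq entry 14 held a match (48.3%), beside 936 of 27025 gene symbols in all (3.46%). Among genes called lower a match stood in 60 of 586 (10.2%), among genes called lower outside the list in 48 of 560 (8.57%), and among genes called higher in 15 of 664 (2.26%). Members that fell far without a match in this window include Cmpk2 (log2 fold change -3.21) and Ifit2 (log2 fold change -3.10). A match is a stretch of letters and not a binding site shown by these data. The stretches from 5 bases before the first match to the last base before the start are printed 5′ to 3′ on the gene's strand for 5 of the 14 members with a match that fell far, with matches in capitals: Ifit3b at chr19:34607764-34607956 (plus strand), Ifit1bl1 at chr19:34601969-34602077 (minus), Rsad2 at chr12:26456453-26456577 (minus), Ifit1 at chr19:34640780-34640888 (plus) and Isg15 at chr4:156200819-156200901 (minus).
Ifit3b: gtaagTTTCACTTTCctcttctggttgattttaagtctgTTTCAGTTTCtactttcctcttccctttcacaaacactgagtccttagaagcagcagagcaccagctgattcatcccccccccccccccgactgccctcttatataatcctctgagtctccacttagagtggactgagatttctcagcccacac
Ifit1bl1: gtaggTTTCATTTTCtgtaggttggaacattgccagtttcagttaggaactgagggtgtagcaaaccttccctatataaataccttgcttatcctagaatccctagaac
Rsad2: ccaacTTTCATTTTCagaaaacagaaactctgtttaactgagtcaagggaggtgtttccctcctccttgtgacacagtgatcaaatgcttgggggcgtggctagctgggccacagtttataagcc
Ifit1: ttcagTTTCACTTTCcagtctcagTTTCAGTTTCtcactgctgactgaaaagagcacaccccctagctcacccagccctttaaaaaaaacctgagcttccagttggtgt
Isg15: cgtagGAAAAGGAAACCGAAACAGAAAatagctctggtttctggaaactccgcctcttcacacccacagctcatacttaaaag
The window of Ifit3 is not printed because the searched sequences of Ifit3 and Ifit3b share an identical run of 169 bases. The genes of this family are close copies, and reads may have been split or lost among them by the counting.

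The genes with these windows were far lower at treated d10. Ifit3b, of the family that binds viral RNA, measured 89.3, 50.8 and 143 normalized CPM at d6 and 4.01, 6.48 and 5.67 at treated d10 (log2 fold change -4.13 ± 0.36, adjusted p = 1.92e-05). Rsad2, the gene of viperin, which blocks viral replication, measured 1127, 613 and 1713 CPM at d6 and 71.4, 80.8 and 83.9 at treated d10 (log2 fold change -3.87 ± 0.32, adjusted p = 1.47e-05). In both genes the second d6 tumor was the lowest and the third the highest of d6, and all were far above the treated tumors. Isg15, a ubiquitin-like tag of antiviral proteins, fell from 398, 316 and 589.5 CPM to 46.1, 75.8 and 57.2 (log2 fold change -2.86 ± 0.25). Ifit1bl1 (log2 fold change -4.02 ± 0.28) and Ifit1 (log2 fold change -3.32 ± 0.28) fell too. Untreated d10 tumors held 68.0, 65.4, 153, 69.9 and 85.2 CPM of Rsad2 and 3.63, 3.85, 9.99, 6.13 and 5.17 of Ifit3b, which overlaps the treated tumors, with tumor 3 the highest in both.

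**Figure D5:**
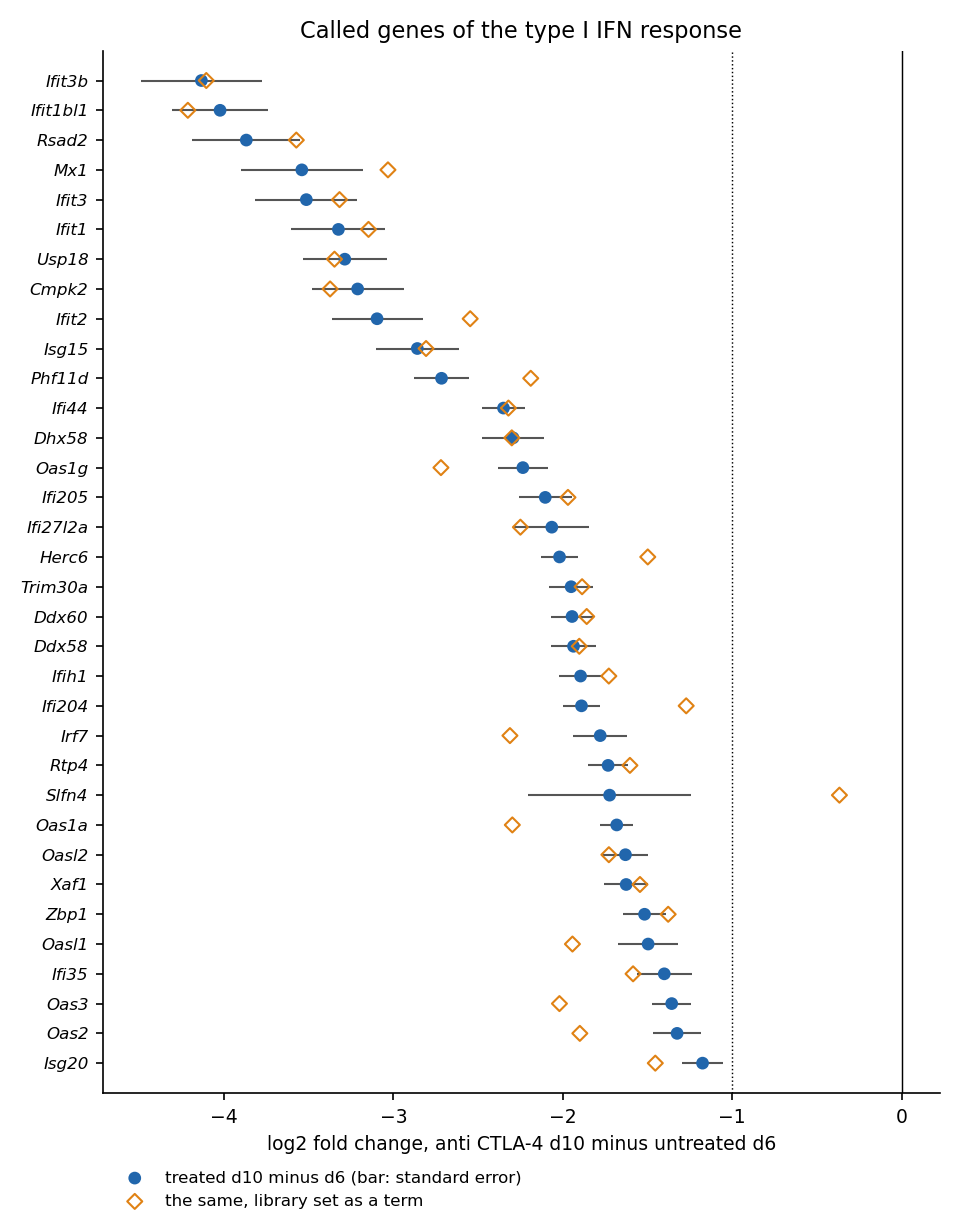
Log2 fold change, anti CTLA-4 d10 minus untreated d6, of the 34 called genes among the 39 tested of the type I IFN response (blue circles, with standard errors as bars) and the same with library set as a term (orange diamonds). The dotted line marks -1. All points lie left of 0, and the circles run from Ifit3b at -4.13 to Isg20 at -1.18.

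Of 10 tested genes of type I IFN, their receptor and their sensors 3 fell, none rose and 4 had a positive log2 fold change. Set-adjusted 4 were called lower, and 2 without untreated d10 tumor 4. Ifnb1, the gene of IFN beta, held 33, 12 and 66 reads at d6 and 5, 3 and 0 at treated d10 (log2 fold change -4.35 ± 0.78, adjusted p = 0.00119). Its set-adjusted call was lost without untreated d10 tumor 4 (adjusted p = 0.223). Tlr3 and Tlr9, sensors of RNA and DNA in endosomes, fell, with log2 fold changes of -1.92 ± 0.17 and -1.36 ± 0.21 (-2.54 for Tlr9 set-adjusted). Irf7, the factor that amplifies IFN production, measured 785, 777 and 1009.8 CPM at d6 and 198, 299 and 249 at treated d10 (log2 fold change -1.78 ± 0.16). Ifi206, a DNA-binding member of the IFN-inducible p200 family outside the list, fell (log2 fold change -4.37 ± 0.24).

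Genes that answer to IFN gamma and genes of antigen presentation moved less. Of 29 tested IFN gamma response genes 2 rose and 2 fell (median -0.40, and -0.12 set-adjusted). Cxcl10, which draws CXCR3-bearing T cells and also answers to type I IFN, fell from 799, 481 and 1301 CPM to 201, 215 and 183 (log2 fold change -2.11 ± 0.29, adjusted p = 0.000251). Cxcl9, a ligand of the same receptor that depends on IFN gamma, measured 882, 759 and 875 at d6 and 441, 472 and 375 at treated d10 (log2 fold change -0.96 ± 0.11, adjusted p = 9.1e-05). This stayed just short of the 2-fold rule and passed it (-1.03 in each case) without the second d6 or the second treated tumor. Gbp3, a guanylate binding protein gene that IFN induces, fell (log2 fold change -1.15 ± 0.10) and was not called set-adjusted (-0.74). Nos2, the inducible nitric oxide synthase of macrophages, rose from 296 to 364 to 866 to 1069 CPM (log2 fold change 1.51 ± 0.11). Of 12 tested MHC class II genes 4 rose and none fell (1 higher and 0 lower set-adjusted). Of 18 MHC class I genes none was called by edgeR's quasi-likelihood test or by DESeq2, with 11 at an unadjusted p below 0.05 and 2 called lower set-adjusted. Over all 13962 tested protein coding genes 7534 were below 0.05 in edgeR's test even after adjustment. B2m, the shared light chain of class I, had a log2 fold change of -0.67 ± 0.10 (adjusted p = 0.000348) and -0.15 set-adjusted, and H2-D1, a class I heavy chain, 0.18 ± 0.09 (-0.016 set-adjusted), with overlapping groups. H2-Eb1, a class II chain, rose (log2 fold change 1.40 ± 0.10), as did H2-DMb2, which takes part in peptide loading (log2 fold change 1.81 ± 0.09). Neither was called set-adjusted (0.74 and 0.57), although H2-Eb1 was once untreated d10 tumor 4 was left out (1.05). Ciita, the switch of class II transcription, rose (log2 fold change 1.02 ± 0.07) and was at 0.79 set-adjusted.

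Macrophage genes moved differently by list. Resident macrophages of the peritoneal cavity are marked by the factor GATA6 and by genes such as Timd4, Alox15 and Prg4, and 10 of 19 tested genes of their list fell and none rose (median -1.21). Alox15, a lipoxygenase, measured 224, 345 and 295 normalized CPM at d6 and 4.54, 8.29 and 12.9 at treated d10 (log2 fold change -5.07 ± 0.34, adjusted p = 4.97e-06), and untreated d10 tumors held 35.1, 24.6, 9.85, 14.7 and 11.3, below d6 and overlapping the treated tumors. Retnla, a gene of alternatively activated macrophages and eosinophils, went from 42.0, 22.4 and 24.1 CPM to 0.549, 0.92 and 2.04 (log2 fold change -4.67 ± 0.41), and Prg4, the gene of lubricin, from 120.3, 165 and 177 to 4.99, 10.0 and 21.5 (log2 fold change -3.66 ± 0.43). Both followed the library sets at untreated d10, with Prg4 at 109, 40.5, 34.7, 8.04 and 7.81 CPM in tumors 1 to 5, and set-adjusted neither was called (-2.06, adjusted p = 0.0938, and -0.72, adjusted p = 0.495). F5, the gene of coagulation factor V, which resident peritoneal macrophages express, fell from 59.0 to 95.9 to 3.65 to 7.75 CPM (log2 fold change -3.90 ± 0.29), and was at -2.04 set-adjusted. Timd4 fell (log2 fold change -1.84 ± 0.16) and was not called set-adjusted (-0.73), and Gata6 had a log2 fold change of -0.69 ± 0.12 (-0.094 set-adjusted) and was not called. Set-adjusted, the list kept 5 lower and had 2 higher, with a median of -0.73.

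Genes of the tumor macrophage list rose in part. Of 24 tested members 6 rose and none fell (median 0.03, and 0.22 set-adjusted with 5 higher and 1 lower). Called or not, 12 members had a positive and 12 a negative log2 fold change. Cx3cr1, the fractalkine receptor of monocyte-derived cells, rose from 0.4, 0.887 and 0.81 CPM to 7.10, 5.55 and 6.43 (log2 fold change 3.18 ± 0.25). Apoe, a lipid carrier of tumor macrophages, rose (log2 fold change 1.32 ± 0.18). Chil3, a chitinase-like gene, rose too (log2 fold change 1.98 ± 0.42), with 39.5, 43.7 and 104 CPM at treated d10 and 88.7, 186, 18.2, 14.6 and 24.4 at untreated d10. Set-adjusted Chil3 was at 4.30, and without untreated d10 tumor 4 at 3.98 and not called. The general macrophage genes Adgre1 and Csf1r had log2 fold changes of -0.59 ± 0.15 and 0.43 ± 0.09 and were not called.

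Among neutrophil genes 4 of 18 rose and 2 fell (median 0.42, and 1.15 set-adjusted with 5 higher and 2 lower). Cxcr2, the receptor that draws neutrophils, measured 26, 32.8 and 26.5 CPM at d6 and 3.26, 3.21 and 3.39 at treated d10 (log2 fold change -3.10 ± 0.12, adjusted p = 2.97e-07). Untreated d10 tumors held 18.6, 17.3, 13.3, 3.63 and 4.07 CPM, so tumors 4 and 5 stood with the treated tumors, and the set-adjusted value was -1.02 (adjusted p = 0.00485). Retnlg, a resistin-like gene of neutrophils, fell (log2 fold change -3.30 ± 0.12), with -2.20 set-adjusted and -1.88 and no call without untreated d10 tumor 4. Clec4d, a receptor for mycobacterial glycolipid, rose (log2 fold change 2.31 ± 0.15).

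Dendritic cell genes fell at treated d10. Of 18 tested members 12 fell and none rose, with a median log2 fold change of -1.42 (13 lower and a median of -1.43 set-adjusted, and 8 lower without untreated d10 tumor 4), while untreated d10 tumors had 5 lower and a median of -0.54. Xcr1, the chemokine receptor of the dendritic cells that cross-present to CD8 T cells, measured 10.3, 8.04 and 9.43 normalized CPM at d6, 3.27, 3.30 and 2.43 at treated d10 and 6.98, 7.14, 6.87, 8.62 and 5.35 at untreated d10. The treated tumors were the lowest of all 11 (log2 fold change -1.62 ± 0.17 against d6, adjusted p = 4.94e-05). Clec9a, which the same cells use to sense dead cells, fell (log2 fold change -1.06 ± 0.15), a call lost set-adjusted (-0.69) and without the third d6 (-0.99) or the second treated tumor (-0.97). Flt3, the receptor for their growth factor, fell (log2 fold change -1.22 ± 0.17), as did Siglech, a receptor of plasmacytoid dendritic cells (log2 fold change -1.76 ± 0.20). Ccr7, which guides mature dendritic cells and naive T cells to lymph nodes, fell from 8.0, 8.24 and 9.70 CPM to 1.92, 2.57 and 2.13 (log2 fold change -1.96 ± 0.16). Ccl22 and Ccl17, whose products draw CCR4-bearing cells such as regulatory T cells, fell, with log2 fold changes of -2.16 ± 0.12 and -3.08 ± 0.36 (-1.78 for Ccl17 set-adjusted), and Il12b, a chain of IL-12 and IL-23, went from 30 to 44 reads a library to 6 to 12 (log2 fold change -2.58 ± 0.38). Without untreated d10 tumor 4 the set-adjusted calls of Flt3 (-0.90), Ccl17 (-1.85) and Il12b (-1.53) were lost.

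Against untreated d10 tumors the dendritic cell genes were lower without a firm call. The direct log2 fold change was -1.22 for Xcr1 (adjusted p = 0.0779), -1.12 for Flt3 and -1.27 for Siglech. With library set as a term 4 of the 18 were called lower, and none without tumor 4, when Xcr1 was at -0.86 (adjusted p = 0.199).

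Most genes of the list of eosinophils, mast cells and the type 2 response fell. Of 21 tested members 13 fell and 1 rose (median -1.82), and 6 fell and 2 rose set-adjusted (median -0.69). The members that rose, in either fit, were mast cell genes, whereas other mast cell genes of the list fell or were not called. At untreated d10 7 members were lower and 3 higher than at d6, with a median of -0.98, so much of the fall was seen without the antibody too. Ccr3, the eotaxin receptor, measured 23.6, 20.8 and 20.4 normalized CPM at d6 and 2.40, 1.49 and 2.11 at treated d10 (log2 fold change -3.42 ± 0.17, adjusted p = 1.13e-06). Ear2, a ribonuclease of eosinophil granules with close relatives in the genome, fell (log2 fold change -3.41 ± 0.23). Siglecf, an eosinophil surface lectin (log2 fold change -2.57 ± 0.20), and Il5ra, the receptor chain for the eosinophil growth factor IL-5 (log2 fold change -3.76 ± 0.35), fell as well. Il4, the cytokine gene of type 2 T cells, held 32 to 36 reads a library at d6 and 1 to 6 at treated d10 (log2 fold change -3.91 ± 0.48, adjusted p = 0.000126). Ccl24, an eotaxin, fell (log2 fold change -2.71 ± 0.26) and was not called set-adjusted (-0.65).

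Of 30 tested chemokine genes 3 rose and 13 fell (6 higher and 8 lower set-adjusted), and of 26 genes of cytokines and the inflammasome 1 rose and 9 fell (2 higher and 4 lower set-adjusted). Ccl20, which draws CCR6-bearing cells, fell from 8.36, 6.33 and 6.52 CPM to 0.489, 0.92 and 0.536 (log2 fold change -3.44 ± 0.25). Il1f6, the gene of IL-36 alpha, fell (log2 fold change -2.41 ± 0.27), as did Il18, whose product drives IFN gamma release (log2 fold change -1.79 ± 0.21). Casp4, the gene of the caspase that senses bacterial lipopolysaccharide in the cytosol, fell from 118 to 143 to 40.6 to 47.8 CPM (log2 fold change -1.53 ± 0.10), and set-adjusted it was at -0.59 (adjusted p = 0.0505).

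Most B cell genes fell at treated d10. Of 17 tested members 13 fell and none rose, with a median log2 fold change of -2.15, whereas at untreated d10 1 rose and none fell (median 0.51). The latter median rested on untreated d10 tumor 4, without which it was -0.47, with 1 higher and 1 lower. Ms4a1, the gene of CD20, measured 8.27, 10.2 and 8.08 normalized CPM at d6 and 0.716, 1.65 and 1.01 at treated d10 (log2 fold change -2.97 ± 0.27, adjusted p = 2.42e-05, and -4.77 set-adjusted). Untreated d10 tumors held 6.60, 8.37, 3.27, 35.3 and 6.56 CPM, with tumor 4 far above the rest and every one above the treated tumors. Cd79a, a signaling chain of the B cell receptor, fell from 8.43, 10.6 and 13.5 CPM to 0.979, 2.39 and 1.3 (log2 fold change -2.80 ± 0.31), and was at -4.80 set-adjusted. Bank1, a scaffold of that receptor, fell as well (log2 fold change -2.98 ± 0.18). Pax5, the factor of B cell identity, was at 46.8, 36.3 and 56.0 CPM at d6 and 29.7, 23.7 and 30.7 at treated d10 (log2 fold change -0.72 ± 0.16) and not called. Jchain, which joins antibody molecules in plasma cells, fell from 151, 207 and 200.1 CPM to 27.4, 32.3 and 23.3 (log2 fold change -2.74 ± 0.15), with 4 of 10 plasma cell genes lower in all and 2 set-adjusted without untreated d10 tumor 4.

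The difference in B cell genes between treated and untreated d10 rested largely on untreated d10 tumor 4. Treated minus untreated d10 gave -3.41 for Ms4a1 (adjusted p = 0.194) over all 8 tumors, -4.24 (adjusted p = 0.044) against tumors 4 and 5, and -4.22 (adjusted p = 0.00434) with library set as a term. Without tumor 4 the last of these was -2.57 (adjusted p = 0.0406), and the number of B cell genes called lower went from 13 to 1. The set-adjusted median against d6 was -4.19 and became -2.45 without that tumor. Of 5 tested genes of lymphoid stroma, the tissue of lymph nodes, 4 fell against d6, among them Glycam1 of lymph node vessels, with 18 to 35 reads a library at d6 and 2 to 6 at treated d10, and without tumor 4 the set-adjusted fit called 1 of the 5, and not Glycam1 (-2.10). That list summed to 3.85 to 5.63 CPM at d6, 1.77 to 2.01 at treated d10 and 2.59 to 20.7 at untreated d10, and the part of lymphoid tissue taken with a tumor in the B cell values was not tested.

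Some genes of the peritoneal lining and most of fat fell. Upk1b and Upk3b, uroplakin genes of normal mesothelium, measured 17.1, 8.10 and 10.6 and 16.7, 5.66 and 10.9 normalized CPM at d6 and 1.24, 1.96 and 1.56 and 1.43, 2.03 and 1.68 at treated d10. Both fell (log2 fold change -2.91 ± 0.29, adjusted p = 3.8e-05, and -2.69 ± 0.34, adjusted p = 0.000169), with the first d6 tumor the highest in each. Gpm6a, a membrane glycoprotein gene of mesothelial cells, fell (log2 fold change -2.30 ± 0.31), whereas Msln (log2 fold change 1.44 ± 0.13) and Calb2, the gene of calretinin (log2 fold change 1.19 ± 0.20), rose. The rise of Msln was not called set-adjusted (0.56). Krt18 had a log2 fold change of -0.18 ± 0.10 (-0.51 set-adjusted) and was not called. Without untreated d10 tumor 4 the set-adjusted calls of Upk3b (-1.92), Gpm6a (-1.18), Calb2 (1.14) and the adipocyte gene Adipoq (-1.67) were lost. Of 17 tested genes of mesothelium and mesothelioma 3 rose and 4 fell (median 0.05, and -0.12 set-adjusted), and 1 was higher and 1 lower set-adjusted without untreated d10 tumor 4. Of 8 tested adipocyte genes 6 fell (4 set-adjusted, and 2 without that tumor), among them Adipoq, the gene of adiponectin, from 4.07, 1.27 and 2.33 CPM to 0.788, 0.628 and 0.594 (log2 fold change -1.92 ± 0.38). Cfd, the gene of adipsin (log2 fold change -2.43 ± 0.34), and Ucp1 of brown fat (log2 fold change -3.80 ± 0.44, and -2.51 set-adjusted) were others. In Adipoq, Cfd, Upk1b and Upk3b the first d6 tumor was highest and the second lowest, and the part of normal tissue at the tumor's edge in these values was not tested.

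Stromal genes went both ways. Of 37 tested genes of collagens and extracellular matrix 5 rose and 4 fell (8 higher and 3 lower set-adjusted). Tnc, the gene of the wound and tumor matrix protein tenascin C, rose from 28.6, 30.4 and 32.6 normalized CPM to 168, 109 and 156 (log2 fold change 2.25 ± 0.15, adjusted p = 4.71e-06). Col12a1, a collagen associated with fibrils (log2 fold change 2.06 ± 0.16), and Mmp3, a matrix protease (log2 fold change 2.5 ± 0.22, and 1.33 set-adjusted), rose too. Postn, the gene of periostin, fell from 168, 138 and 147 CPM to 48.0, 42.3 and 44.9 (log2 fold change -1.74 ± 0.10). Acta2, the smooth muscle actin of vessels and myofibroblasts (log2 fold change -1.55 ± 0.12), and Pi16 of progenitor-like fibroblasts (log2 fold change -2.04 ± 0.19) fell as well. Postn was at -1.16 set-adjusted, and without untreated d10 tumor 4 the set-adjusted calls of Mmp3 (1.3) and Pi16 (-1.09) were lost. Col14a1, a fibroblast collagen, fell (log2 fold change -1.5 ± 0.23), with 4 of 15 tested fibroblast genes lower and 1 higher. In vessels 4 of 23 tested genes rose and 2 fell (2 higher and 1 lower set-adjusted), with a median of 0.47 that was -0.35 set-adjusted. Esm1, a gene of sprouting endothelium, rose (log2 fold change 2.09 ± 0.26). Ackr1, the atypical chemokine receptor of venules, fell (log2 fold change -2.10 ± 0.39) and shares 25.7% of its exon bases with Cadm3. Selp, the gene of P-selectin, is expressed by resident peritoneal macrophages too, and fell (log2 fold change -2.03 ± 0.20) and was not called set-adjusted (-1.14). Gc, the vitamin D binding protein known from liver, fell from 41.6, 32.7 and 33.3 CPM to 1.19, 2.37 and 1.88 (log2 fold change -4.31 ± 0.22), and untreated d10 tumors held 1.15, 1.47, 2.40, 1.02 and 1.88. Trf, the gene of transferrin, was lower in the 6 libraries (log2 fold change -1.96 ± 0.12) and higher set-adjusted (1.46, adjusted p = 0.0151), and it shares 63.5% of its exon bases with another gene.

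Genes of muscle, gut, pancreas, blood and complement gave few calls. Of 8 tested smooth muscle genes 1 fell, namely Myh11, a myosin of contractile cells (log2 fold change -1.55 ± 0.24), while Des (-0.64, and -0.096 set-adjusted) and Smtn (0.18 and 0.27) were not called. Without untreated d10 tumor 4 the set-adjusted calls of Myh11 (-0.81) and of the fibroblast gene Col14a1 (-0.93) were lost. Of 5 tested skeletal muscle genes 1 fell and none was called set-adjusted, and Mylpf and Tnni2 had log2 fold changes of -0.65 ± 0.27 and -0.60 ± 0.39 and were not called, although Tnni2 passed the rule without the second treated tumor (-1.14) and was at -0.21 set-adjusted. Cela1 and Ctrl, genes of pancreatic enzymes, had log2 fold changes of -0.13 ± 0.24 and -0.31 ± 0.39, with overlapping groups, and Ctrl was at 0.83 set-adjusted. Of 3 tested liver genes 2 fell, Gc and Trf. Of 3 tested intestine genes Lgals4 rose (log2 fold change 1.33 ± 0.35), but had the opposite sign set-adjusted (-0.44), and Cdx2, an intestinal homeobox gene, was not called (-0.53, and -0.93 set-adjusted) except set-adjusted without untreated d10 tumor 4 (-1.03). Of 7 tested red blood cell genes the hemoglobin gene Hbb-bt rose (log2 fold change 1.17 ± 0.20), also with the opposite sign set-adjusted (-0.44), and Hbb-bs (0.43, and -0.52 set-adjusted) and Hba-a1 (0.79 and -1.38) were not called. Of 20 tested complement genes 1 fell (3 higher and 2 lower set-adjusted), and C3, the central component, had a log2 fold change of 0.74 ± 0.12 and passed the rule only set-adjusted (1.04), while C1qa was at -0.18 (-0.068 set-adjusted) with overlapping groups. None of the 7 listed Reg genes of inflamed pancreas and gut could be tested.

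Proliferation differed little. None of 32 tested genes of cell cycle and DNA replication was called by edgeR's quasi-likelihood test, with 25 at an unadjusted p below 0.05 and 0 called by DESeq2. Over all 13962 tested protein coding genes 7534 were below 0.05 in edgeR's test even after adjustment, so such p values are common here. The list had a median log2 fold change of -0.27 and summed levels of 5318 to 5460.1 normalized CPM at d6 and 4594 to 4688 at treated d10. Mki67, the common marker of dividing cells, was at 334, 253 and 342 CPM at d6 and 423, 282 and 422 at treated d10 (log2 fold change 0.28 ± 0.17, adjusted p = 0.177, and 0.75 set-adjusted), and the groups overlapped. Top2a, which untangles DNA in dividing cells, was lower in each treated tumor by a small margin (log2 fold change -0.28 ± 0.08, adjusted p = 0.0112, and -0.11 set-adjusted). Of the tested genes of hypoxia and glycolysis 2 of 27 rose and none fell. Car9, the carbonic anhydrase that HIF induces, rose (log2 fold change 1.32 ± 0.18), a call lost set-adjusted (0.78), and Pfkfb3, which raises glycolytic flux, rose (log2 fold change 1.11 ± 0.11).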

How the data were processed

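Per the labels and the study's methods, RNA of whole tumors was made into libraries with KAPA RNA HyperPrep. The authors aligned reads to GRCm38 with TopHat2 2.0.14 and counted them per Gencode vM21 gene with HTSeq, and deposited raw counts, without normalization, whose strand setting is not given in the sources used here. Library totals ran from 46371577 to 88029944 in the 11 libraries used. Counts of the 6 libraries were tested with edgeR 4.0.16 (filterByExpr, TMM, quasi-likelihood test, Benjamini-Hochberg adjustment over all genes tested). Standard errors (SE) were taken as the size of the log2 fold change over the root of the F statistic. Normalized CPM used TMM factors over all 17 libraries. The set-adjusted fit added the untreated d10 tumors and library set, found by clustering pseudogenes and small RNA genes. DESeq2 1.42.0 and other filters and libraries were alternatives. On simulated counts of 16446 genes 84.5% of genes changed by 1.5 on the log2 scale and 94.9% of those changed by 2 were called, and 0.0308% of unchanged genes. The simulated counts held no difference between library sets, so these shares do not give the error rate of the calls in the real libraries.

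Genes were named by a rule: 17 T cell and IFN genes of the study's theme, the 6 largest changes each way with a mean of at least 10 CPM and no overlap, the 3 largest called changes of each of 40 gene lists with a mean of at least 1 CPM, and the 2 highest members of lists with fewer than 2 calls. Members and lists were chosen with earlier results of these data known. Adgre1, Apoe, Btla, Calb2, Ccl4, Cd274, Clec9a, Csf1r, Flt3, Gata6, Glycam1, Gzmc, Gzmk, Gzmn, Icos, Ifit1, Il12b, Il2ra, Il4, Irf7, Isg15, Krt18, Msln, Ncr1, Pax5, Postn, Siglecf, Siglech, Tigit, Timd4, Tnfsf10, Trat1, Xcr1 and Zap70 were named after their values were seen. Some genes that the rule or the lists hold are not reported here.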

Additional observations from a re-analysis of the deposited data

Results flagged for a closer look

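In the 5 untreated d10 tumors a tumor stood apart in 4 of the 19 genes whose levels are given for them. The measure was the gap to its nearest neighbour as a share of the whole range (critical value 0.71). For a single group chance alone marks about 1 in 20, but some of the 19 genes were named after their values were seen. That rate can therefore not be set against 4 of 19. Of the 4 genes, tumor 4 was the highest in 3, with shares of 0.841 for Ms4a1, 0.807 for Btla and 0.795 for Izumo1r, and tumor 3 in Rsad2 (0.774). Outside the protein coding genes, 15 of 17 tested variable segments of T cell receptor genes were called higher at treated d10 than at d6, beside 11.9% of all tested genes that are not protein coding (36.7% in either direction).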

How the results depend on the processing

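The count of 1730 genes called between treated d10 and d6 stayed between 1305 and 2063 under all other filters, scalings, tools and left-out libraries (leaving out 1 library gave 1640 to 1833), and was 1333 with library set as a term and 1057 when untreated d10 tumor 4 was also left out. The direct comparison with untreated d10 moved most: from 0 genes to 145 with DESeq2, 22 with all genes of at least 1 count, 43 with all groups in one fit, 1 with thinned counts, 544 against tumors 1 to 3, 24 against tumors 4 and 5, 113 with library set as a term, 6 with that term and without tumor 4, and 0 to 77 with 1 library left out. Untreated d10 tumors 4 and 5 against d6 gave 1738 genes, beside 1039 with all 5. Of 143 named genes 111 kept direction and side of the threshold with library set as a term, 21 lost the call, 3 gained it and 8 had the opposite sign, and without untreated d10 tumor 4 these were 94, 37, 4 and 8. With the term the signs turned for Ctrl (0.83), H2-D1 (-0.016), Hba-a1 (-1.38), Hbb-bs (-0.52), Hbb-bt (-0.44), Ifng (0.0060), Lgals4 (-0.44) and Trf (1.46), and without tumor 4 as well for C1qa (0.19), Cela1 (0.12), Ctrl (0.59), Des (0.29), Hba-a1 (-0.52), Ifng (0.10), Lgals4 (-0.018) and Trf (1.60). Cela1 ran from -0.26 to 0.020 with 1 library left out. The causes were not tested.

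Replicate numbers were taken not to pair the tumors, which came from separate mice: deviations of same-numbered d6 and treated d10 tumors correlated at 0.30, 0.17 and -0.11 over 12213 genes, and the third treated tumor correlated best with another number. With the replicate block 1783 genes were called against d6, and of the named genes only Cd69 lost its call. In the direct comparison the block gave 576 genes.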
